A study of Mus musculus with 4 samples.

Results

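The colony-stimulating factors and their receptors were followed as 9 genes, chosen by symbol from the 32289 features counted in every library. They comprise 4 ligands (Csf1, Csf2, Csf3 and Il34) and 5 receptor genes (Csf1r, Csf2ra, Csf2rb, Csf2rb2 and Csf3r). All 9 were detected, with between 193 UMIs (Csf3) and 30819 UMIs (Csf2rb) over the 4 libraries. A UMI is a unique molecular identifier, so each count stands for 1 captured transcript molecule.

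Colony-stimulating factors are secreted proteins that keep myeloid cells alive and drive them to divide and mature. M-CSF (encoded by Csf1) and interleukin 34 (Il34) bind the same receptor tyrosine kinase, CSF1R, on monocytes and macrophages. GM-CSF (Csf2) binds an alpha chain, encoded by Csf2ra, that signals through a common beta chain encoded by Csf2rb, and in the lung it is required for alveolar macrophages to form. Mice carry an additional beta chain gene, Csf2rb2, which is used with the interleukin 3 receptor. G-CSF (Csf3) acts on neutrophils and their precursors through CSF3R.

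The libraries came from lung tumours of mice that all carried p53frt, Rosa-FSF-CreERT2 and Hnf4aflox, among other engineered alleles. Flp recombinase, delivered to the lung by an adenovirus that drives FlpO from the mSPC promoter, switches on CreERT2 and deletes p53 in the infected cells. Tamoxifen, which activates CreERT2 to delete Hnf4a, or its vehicle was given 10 weeks after the virus, and tumours were taken 2 weeks later. Each suspension was sampled before and after bead depletion of CD45-positive leukocytes and CD31-positive endothelial cells, frozen, thawed and sorted for live cells. This gave 4 groups, vehicle and tamoxifen, each in a portion taken ahead of depletion and a portion taken once it was done. The labels name the vehicle both as ethanol and as corn oil. The age and number of animals, and how many tumours were pooled, were not given in the sources used here. There was 1 library per group and therefore no replicate. No test between groups was possible, no p-value is given, and every interval covers counting error only.

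The vehicle libraries held 7658 barcodes (104147479 UMIs) before and 7284 barcodes (144994771 UMIs) after depletion, and the tamoxifen libraries 6558 (92644997 UMIs) and 7867 (141742060 UMIs). Filters kept 7079, 6923, 6111 and 7358 cells in that order. Pairs of libraries shared between 10 and 18 barcodes, at most 0.274% of the smaller library. Cell classes were named from marker genes and are written as "X-like". Before depletion every marker of the larger classes was counted at 10 CPM (counts per 1000000 UMIs of the class) or more, except 1 of the 8 alveolar macrophage markers in the library labelled tamoxifen. Hnf4a, the floxed gene, went against its label. It stood at 57.2 CPM (exact Poisson 95% interval 54.6 to 59.9) in vehicle and 86.8 CPM (83.8 to 90.0) in tamoxifen epithelial-like cells before depletion. After depletion it stood at 55.0 and 83.0 CPM. Directions below are therefore those of the library labelled tamoxifen against vehicle, not of a proven loss of Hnf4a, and counts at the 3′ end do not show whether the floxed exons were present.

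Promoter sequences were available for 5 of the 9 genes in the RefSeq table used here (build GRCm38.p6), namely Csf1, Csf2, Csf2ra, Csf2rb2 and Csf3r. They were searched on both strands, from 250 bases before to 50 after the start site, for GAGGAA, the core recognised by the myeloid transcription factor PU.1. The letters were found at 3 of the 5, all of them receptor genes, and at 28.3% of the 32851 promoters in the table. The 180 bases before the start of Csf2ra and Csf2rb2, and 30 bases around the match in Csf3r, are shown because their transcripts shared the myeloid classes described below. Capitals mark GAGGAA or its reverse complement TTCCTC, and each sequence runs 5′ to 3′ on the strand of the gene. The sequences lie at chr19:61228419-61228598 (minus strand) for Csf2ra, chr15:78305722-78305901 (minus strand) for Csf2rb2 and chr4:126024561-126024590 (plus strand) for Csf3r.
Csf2ra: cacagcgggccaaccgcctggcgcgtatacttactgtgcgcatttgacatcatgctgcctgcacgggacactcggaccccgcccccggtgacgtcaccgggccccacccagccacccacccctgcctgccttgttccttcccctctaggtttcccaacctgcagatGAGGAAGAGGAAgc
Csf2rb2: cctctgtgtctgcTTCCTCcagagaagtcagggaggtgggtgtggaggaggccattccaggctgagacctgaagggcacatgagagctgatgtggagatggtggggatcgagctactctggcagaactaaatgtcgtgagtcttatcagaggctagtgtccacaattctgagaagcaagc
Csf3r: cctccttcctgaGAGGAAggggctgtctat
Csf2ra carried the letters back to back, starting 14 and 8 bases before the start site. In Csf2rb2 they began 167 bases before it on the opposite strand, with a further copy at base 30 after the start, outside the bases shown. In Csf3r they began 86 bases before the start. These start sites are those of RefSeq, and they lie 109 bases (Csf3r) and 11 bases (Csf2ra) inside the genes as GENCODE M21 draws them. The Csf3r match and the Csf2ra copy starting 8 bases before the start therefore lie within their GENCODE genes. The Csf2ra copy starting 14 bases before it lies partly within. The AP-1 letters TGANTCA, where N is any base, were at 7.81% of all promoters and at 0 of the 5. A match of letters is not evidence of a bound site, and the absence of a match concerns only this window.

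**Figure D1:**
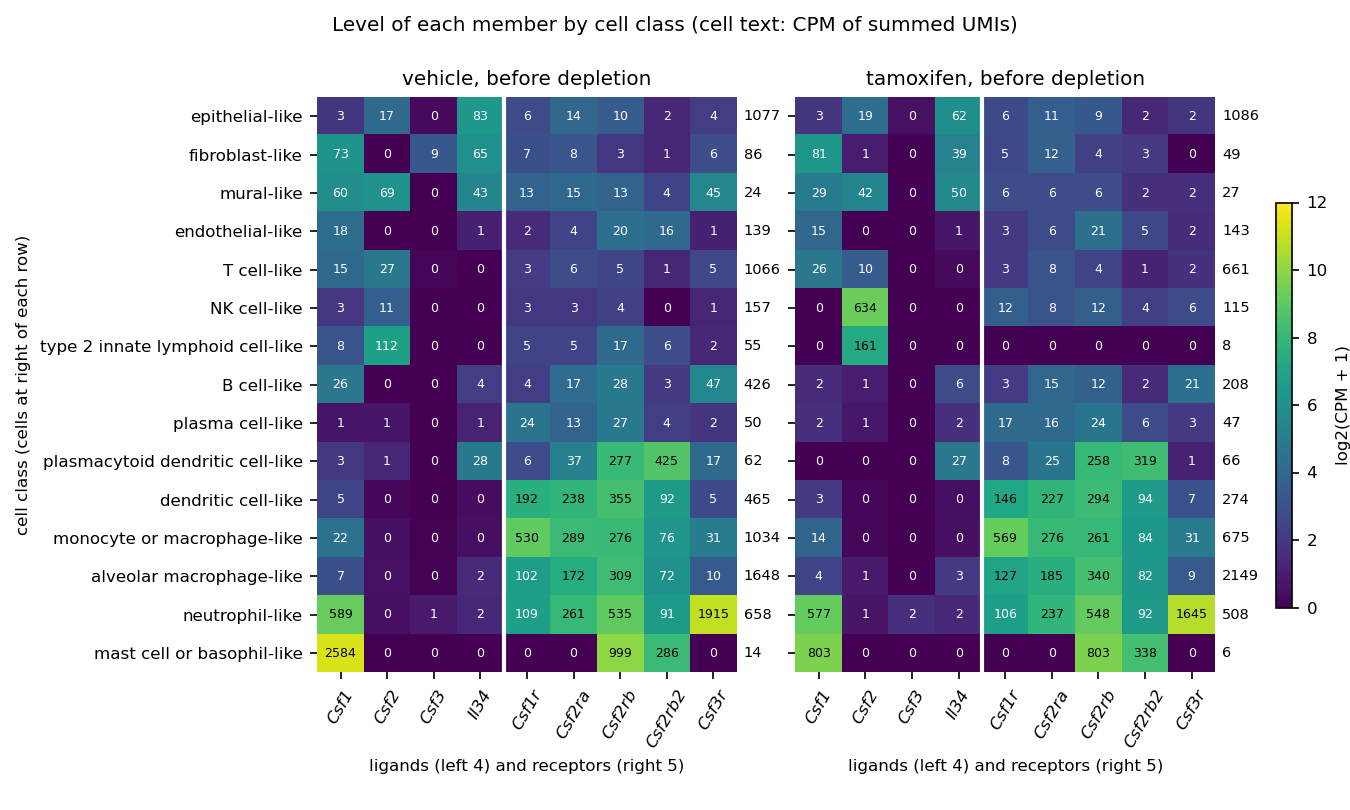
Level of each gene (columns) in each cell class (rows) before depletion, vehicle at left and tamoxifen at right. Numbers and colour give CPM of the summed UMIs (colour as log2(CPM + 1)), and the number of cells stands at the right of each row. Csf1 and Csf3r peak together in neutrophil-like cells outside the small mast or basophil-like class, Il34 in epithelial-like cells, and the receptors in the myeloid rows.

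Csf1, the M-CSF gene (chromosome 3 from 107741048 to 107760469, minus strand, ENSMUSG00000014599, GENCODE M21, GRCm38), was mainly a neutrophil transcript in these tumours. Neutrophil-like cells held it at 589 CPM (559 to 620) with vehicle and 577 CPM (543 to 613) with tamoxifen, a difference of -0.03 (-0.14 to 0.08) on the log2 scale, tamoxifen over vehicle. These cells made up 9.30% and 8.31% of kept cells but held 52.4% (50.6 to 54.3) and 62.9% (60.6 to 65.2) of all Csf1 UMIs. The transcript was spread widely: 331 of 658 and 255 of 508 neutrophil-like cells had a Csf1 UMI, and the cell with most held 2.46% and 3.21% of the class total. After thinning every cell to 2000 UMIs, 41.5% (37.5 to 45.5) and 41.7% (36.9 to 46.5) of neutrophil-like cells had a Csf1 UMI, against 50.3% and 50.2% unthinned. B cell-like cells, which should lack the ligands, gave 2.20% (1.01 to 4.13) and 0% of 190 cells, which allows up to 1.58%, after thinning, against 3.52% and 0.962% unthinned. Median depths were 3421 and 3622 UMIs in neutrophil-like cells and 4898 and 4547 UMIs in B cell-like cells.

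The neutrophil-like cells fell into a pair of clusters with opposite orders for ligand and receptor. The larger, cluster 20, had Csf1 at 767 CPM (727 to 808) with vehicle and 718 CPM (676 to 763) with tamoxifen. The smaller, cluster 23, which had Retnlg among its leading genes, had Csf1 at 104 CPM (80.6 to 131) and 81.3 CPM (56.3 to 114). For Csf3r the order was reversed, with 1675 CPM (1616 to 1736) and 1461 CPM (1400 to 1524) in cluster 20 against 2569 CPM (2449 to 2694) and 2291 CPM (2148 to 2441) in cluster 23. The clusters were formed from the same counts, so this order is a description. Both orders held in the vehicle and in the tamoxifen library. Among thinned neutrophil-like cells, 36.5% (32.6 to 40.5) and 35.5% (30.9 to 40.3) held both Csf1 and Csf3r, against at most 0.299% of thinned alveolar macrophage-like, monocyte or macrophage-like, dendritic cell-like and epithelial-like cells. These joint shares follow the level of each gene in a class, and pairing beyond those levels was not tested.

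By level, the few mast or basophil-like cells stood above neutrophil-like cells in both libraries. They had Csf1 at 2584 CPM (2221 to 2989) over 14 cells with vehicle and 803 CPM (483 to 1254) over 6 cells with tamoxifen. In the latter, 13 of 19 UMIs came from 1 cell. Fibroblast-like cells had 72.8 CPM (61.7 to 85.3) and 81.1 CPM (64.6 to 101) before depletion, and 96.3 CPM (80.0 to 115) and 62.5 CPM (46.1 to 82.9) after it. Stroma thus held Csf1 also in the portions cleared of leukocytes, where epithelial-like cells had 0.220 and 0.329 CPM. Among lymphocytes, CD8 T cell-like cells had most, at 52.9 CPM (42.4 to 65.3) and 70.2 CPM (56.6 to 86.1). T cell-like cells as a whole had 15.4 and 25.8 CPM, a log2 ratio of 0.70 (0.35 to 1.13), over 46 of 1066 and 51 of 661 cells with a Csf1 UMI. Of these 1066 and 661 cells, the CD8 T cell-like subclusters held 113, 110 and 37 with vehicle and 65, 116 and 35 with tamoxifen. CD8 T cell-like cells were thus a larger share with tamoxifen, and the part of this makeup in the class ratio was not tested. In monocyte or macrophage-like cells Csf1 went the other way, at 21.6 CPM (19.5 to 23.9) and 13.8 CPM (11.7 to 16.1). That log2 ratio was -0.62 (-0.93 to -0.38), and -0.51 without the cell with most UMIs in each library.

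Il34, the second CSF1R ligand (chromosome 8 from 110741829 to 110805924, minus strand, ENSMUSG00000031750), was counted mostly in epithelial-like cells. Epithelial-like cells held 90.2% (89.0 to 91.2) of its UMIs with vehicle and 90.9% (89.6 to 92.0) with tamoxifen before depletion. They had 83.5 CPM (80.3 to 86.7) and 62.1 CPM (59.5 to 64.8) before depletion, and 65.0 CPM (63.7 to 66.4) and 53.3 CPM (52.1 to 54.6) after it. Both tamoxifen values lay below both vehicle values, although the intervals around 62.1 and 65.0 CPM overlap. After thinning, 14.6% (12.4 to 16.9) and 12.2% (10.3 to 14.3) of epithelial-like cells had an Il34 UMI before depletion, against 65.0% and 64.4% unthinned. B cell-like cells gave 0% of 410 cells, which allows up to 0.732%, and 0.526% (0.0133 to 2.90) after thinning, against 1.17% and 1.44% unthinned. Median depths were 24943 and 28788 UMIs in epithelial-like cells and 4898 and 4547 UMIs in B cell-like cells.

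The log2 ratio of Il34 in epithelial-like cells was -0.42 (-0.51 to -0.34) before depletion and -0.28 (-0.33 to -0.24) after it. The portions before and after depletion come from the same suspensions and do not replicate each other. The difference was present in most epithelial-like clusters: Il34 was lower with tamoxifen in 5 of 7 before depletion (log2 ratios from -1.34 to 0.10) and in 8 of 9 after it (from -1.13 to 0.26). With every cluster given equal shares in both libraries (chosen after seeing the data), Il34 ratios of -0.40 and -0.29 were obtained. The widest gaps for Il34 were in cluster 11, led by Clu and Pyy, at 135 against 52.7 CPM before and 98.1 against 59.2 CPM after depletion, and in cluster 7, with Krt7 and Cldn4 among its leading genes, at 73.9 against 37.5 CPM and 64.6 against 29.1 CPM. In the Lyz1-led cluster 15, rich in surfactant genes, Il34 differed less, at 81.4 against 76.9 CPM and 63.5 against 58.9 CPM. The exception after depletion was cluster 6, led by Rbp4, with Il34 at 54.9 CPM in 1332 vehicle cells and 65.9 CPM in 138 tamoxifen cells.

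Stromal classes also carried Il34. Fibroblast-like cells had 64.7 CPM (54.3 to 76.5) and 39.1 CPM (27.9 to 53.2) before depletion, and 71.2 CPM (57.3 to 87.4) and 52.1 CPM (37.2 to 71.0) after it. These levels lay below the epithelial-like ones before depletion and near them after it (65.0 and 53.3 CPM). Fibroblast-like Il34 was thus also lower with tamoxifen in both portions, with overlapping intervals after depletion. Mural-like cells had between 37.3 and 49.9 CPM in the 4 libraries, over 24 to 45 cells. Plasmacytoid dendritic cell-like cells had 28.2 and 27.1 CPM before depletion, the highest level among named leukocyte classes. In neutrophil-like and macrophage-like cells, the classes that hold Csf1 and Csf1r, Il34 stayed under 3 CPM.

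**Figure D2:**
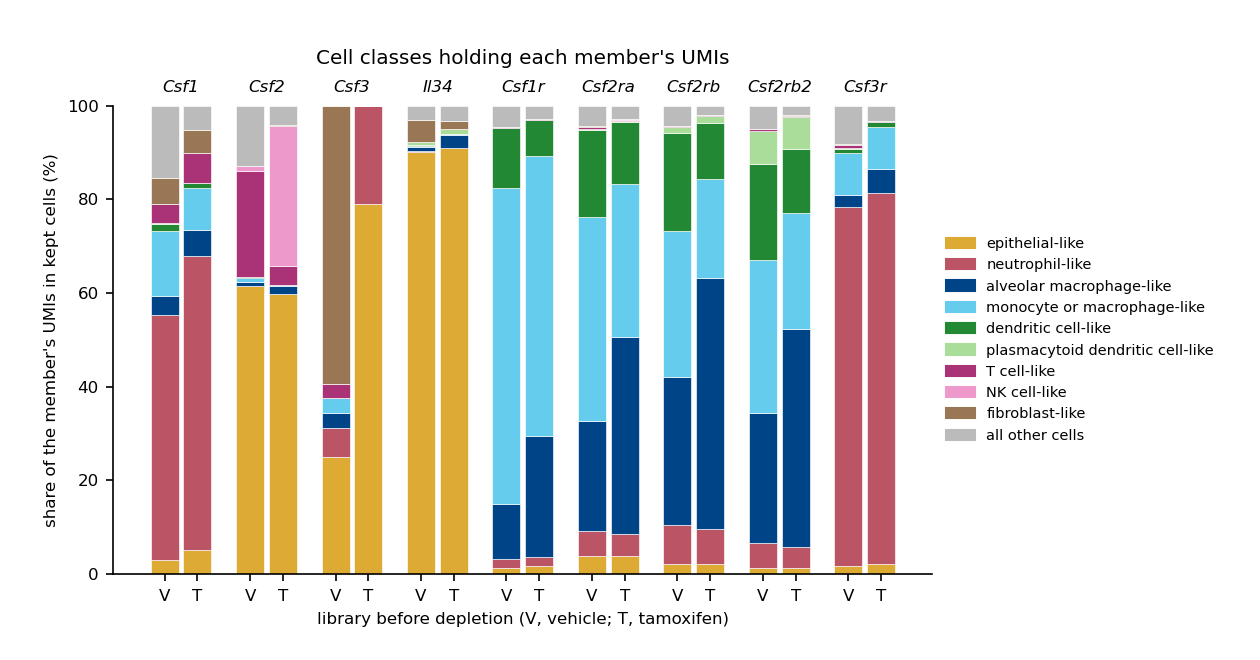
Share of each gene's UMIs (vertical axis, percent) held by each cell class in the vehicle (V) and tamoxifen (T) libraries before depletion. Epithelial-like cells hold most Il34 and Csf2, neutrophil-like cells most Csf1 and Csf3r, and the alveolar macrophage-like part of the 4 other receptor bars is larger with tamoxifen (for Csf2rb 31.5% against 53.5%).

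Csf2, which encodes GM-CSF (chromosome 11 from 54247271 to 54249667, minus strand, ENSMUSG00000018916), came mostly from epithelial-like cells. They held 61.5% (58.1 to 64.7) of its UMIs with vehicle and 59.8% (56.8 to 62.7) with tamoxifen before depletion. Their level was 16.5 CPM (15.1 to 17.99) and 18.9 CPM (17.5 to 20.4) before depletion, and 23.7 CPM (22.9 to 24.6) and 22.8 CPM (22.0 to 23.6) after it. The log2 ratios were 0.19 (0.03 to 0.37) and -0.06 (-0.13 to 0.01), so the treatments did not differ the same way in both portions. The first ratio was 0.01 when each cell was weighted equally, and the second was -0.21 with equal cluster shares. Before depletion the 8 epithelial-like cells with most Csf2 held 50.2% of the class's Csf2 UMIs with vehicle. The 9 with most held 50.9% with tamoxifen. The intervals do not cover this spread between cells. After thinning, a Csf2 UMI was seen in 2.87% (1.93 to 4.10) and 3.26% (2.28 to 4.50) of epithelial-like cells before depletion, against 15.1% and 18.7% unthinned. Thinned B cell-like cells gave 0% of 410 and of 190 cells, which allows up to 0.732% and 1.58%, against 0% and 0.481% unthinned, at the median depths given above.

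Within the epithelium Csf2 was concentrated in cluster 11, whose leading genes include Clu, Pyy, Gzme and Mcpt1. With vehicle that cluster made up 6.13% of epithelial-like cells before and 8.18% after depletion, yet held 52.3% (47.9 to 56.6) and 56.2% (54.5 to 57.9) of their Csf2 UMIs. With tamoxifen it made up 7.55% and 9.52% of the cells and held 38.4% (34.7 to 42.3) and 53.0% (51.2 to 54.8) of the Csf2 UMIs. The clusters were formed from the same counts, so this too is a description. Its Csf2 level was 98.0 CPM with vehicle and 82.2 CPM with tamoxifen before depletion, a log2 ratio of -0.25 (-0.50 to -0.0015). After depletion it was 138 and 107 CPM, a log2 ratio of -0.37 (-0.47 to -0.28). In the other epithelial-like clusters with at least 20 cells Csf2 stood between 0.590 and 23.0 CPM, lowest in cluster 18, the alveolar type 1-like cells led by Ager. Even in cluster 11 a minority of cells carried the transcript: 16 of 66 and 15 of 82 before depletion, and 140 of 534 and 198 of 675 after it. The intervals of its Csf2 ratios leave out this unevenness between cells. Cluster 7 shows how far the portions can part, with Csf2 at 3.44 and 19.5 CPM before depletion (log2 ratio 2.20) but 18.7 CPM in both libraries after it.

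**Figure D3:**
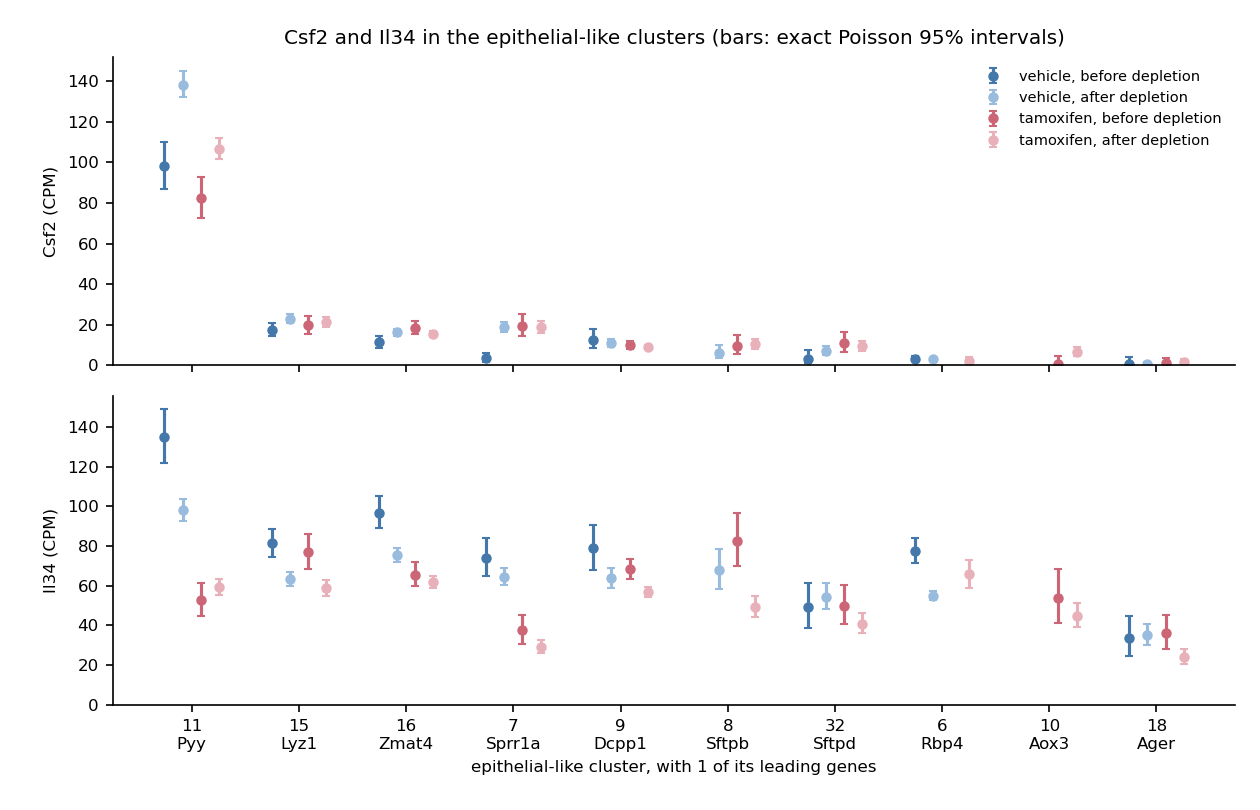
Csf2 (top) and Il34 (bottom) in the epithelial-like clusters of the 4 libraries, in CPM with exact Poisson 95% intervals (counting error only). Csf2 stands apart in cluster 11 in all 4 libraries, whereas Il34 is present in every cluster and is lower with tamoxifen in 8 of 9 clusters after depletion.

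Lymphocytes were the other source of Csf2, through a handful of cells. Natural killer (NK) cell-like cells had 8 UMIs with vehicle and 329 with tamoxifen, or 10.9 and 634 CPM. The 329 Csf2 UMIs sat in 8 of 115 cells, with 177, 105, 20, 16, 4, 3, 2 and 2 each, and the vehicle UMIs in 4 of 157 cells, with 4, 2, 1 and 1. Of these, 324 lay in 6 of the 25 tamoxifen cells of a Gzmc-led subcluster, and 7 in 3 of its 30 vehicle cells. That subcluster held T cell markers beside NK cell markers: Trbc2 at 824 and 865 CPM and Cd3d at 457 and 484 CPM. Ncr1, the highest of the NK cell markers, was at 238 and 333 CPM, Prf1 at 110 and 96.7 CPM and Klra8 at 0 and 218 CPM. The NK name is therefore uncertain for these cells. At a finer clustering 9 and 8 of its cells were left without a name, and the log2 ratio of Csf2 in NK cell-like cells was 2.08 rather than 5.74. Epithelial-like cells then had the highest Csf2 level with tamoxifen among classes with at least 100 cells, at 19.7 CPM.

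T cell-like cells had Csf2 at 26.9 CPM (23.2 to 30.9) with vehicle and 10.4 CPM (7.55 to 13.9) with tamoxifen. Of the 195 vehicle UMIs 121 came from 1 cell, and without the top cell of each library the log2 ratio was -0.46 rather than -1.30. At the finer clustering it was 0.021. The type 2 innate lymphoid cell-like class, known for making GM-CSF, had 112 CPM (88.01 to 141) over 55 cells and 161 CPM (73.5 to 305) over 8 cells, with 48 of 74 and 8 of 9 Csf2 UMIs in 1 cell. In mural-like cells all 32 vehicle UMIs of Csf2 came from 1 cell. Csf2 in lymphocytes and stroma was thus too unevenly spread over cells for these libraries to rank the treatments.

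**Figure D4:**
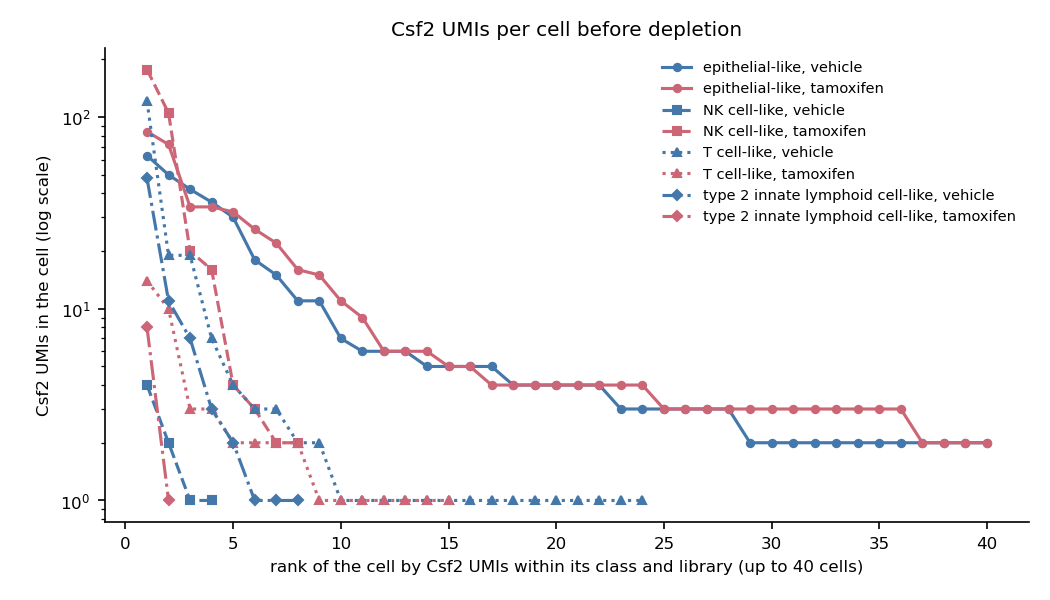
Csf2 UMIs (vertical log axis) in the cells with most Csf2, ranked within class and library before depletion (horizontal axis, up to 40 cells). The NK cell-like tamoxifen curve starts at 177 UMIs and ends after 8 cells, and the T cell-like vehicle curve drops from 121 to 19 UMIs after its first cell, while the epithelial-like curves of both libraries decline alike.

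Csf3, which encodes G-CSF (chromosome 11 from 98701263 to 98703629, plus strand, ENSMUSG00000038067), was rare, with 32 UMIs before and 59 after depletion with vehicle, and 19 and 83 with tamoxifen. In vehicle before depletion 19 of the 32 came from 1 fibroblast-like cell. Epithelial-like cells held 8, 52, 15 and 83 of them, at 0.2503, 0.382, 0.432 and 0.620 CPM. Epithelial-like cells were thus the only class in which Csf3 was counted in all 4 libraries, at levels too low for a ratio between treatments.

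The receptors had a different map, with most of their UMIs in myeloid cells. Csf1r (chromosome 18 from 61100598 to 61132149, plus strand, ENSMUSG00000024621) was highest in monocyte or macrophage-like cells, at 530 CPM (519 to 540) with vehicle and 569 CPM (556 to 583) with tamoxifen. Among them the C1q macrophage-like cells had 660 and 661 CPM and non-classical monocyte-like cells 703 and 660 CPM, levels whose intervals overlap. Classical monocyte-like cells had less Csf1r, at 385 CPM (342 to 432) and 357 CPM (314 to 403). Lower levels were found in dendritic cell-like cells at 192 CPM (183 to 201) and 146 CPM (136 to 156), neutrophil-like cells at 109 CPM (96.2 to 123) and 106 CPM (92.2 to 122), and alveolar macrophage-like cells at 102 CPM (97.3 to 107) and 127 CPM (122 to 132). The neutrophil and alveolar macrophage intervals overlapped with vehicle, and with tamoxifen they lay apart, with alveolar macrophages the higher. After thinning, Csf1r was seen in 62.8% (59.8 to 65.8) and 62.6% (58.8 to 66.3) of monocyte or macrophage-like cells, against 96.5% and 96.1% unthinned. Epithelial-like cells, taken as the background class for the receptors, gave 0.891% (0.408 to 1.68) and 1.02% (0.512 to 1.83) after thinning, against 10.7% and 11.2% unthinned. Median depths were 16150 and 15219 UMIs in the former and 24943 and 28788 in the latter.

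Within dendritic cell-like cells Csf1r separated the subsets. Cd209a-type cells had 254 CPM (241 to 267) and 209 CPM (192 to 226), and mature Ccr7-type cells 103.0 CPM (89.7 to 118) and 144 CPM (126 to 164). Csf1r was lower with tamoxifen in the first subset and higher in the second. Cd209a-type cells numbered 307 of 465 with vehicle and 136 of 274 with tamoxifen. The class ratio of -0.39 (-0.52 to -0.28) moved between -0.61 and -0.27 over the processing alternatives.

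Csf2ra, the GM-CSF alpha chain (chromosome 19 from 61223957 to 61228429, minus strand, ENSMUSG00000059326), was more even across myeloid classes. It stood at 289 CPM (281 to 297) and 276 CPM (267 to 286) in monocyte or macrophage-like cells and at 261 CPM (241 to 282) and 237 CPM (216 to 260) in neutrophil-like cells. Dendritic cell-like cells had 238 CPM (228 to 248) and 227 CPM (215 to 240), and alveolar macrophage-like cells 172 CPM (166 to 178) and 185 CPM (179 to 190). The order of the first 3 depended on scaling, since neutrophil-like cells came first with median-of-ratios size factors in both libraries. Plasmacytoid dendritic cell-like cells had 36.7 CPM (24.0 to 53.7) and 24.8 CPM (15.3 to 37.8). Lymphocytes and stromal cells stayed at or below 18 CPM in classes with at least 100 cells. After thinning, Csf2ra was seen in 28.6% (26.4 to 30.9) and 29.8% (27.9 to 31.8) of alveolar macrophage-like cells, against 73.6% in both unthinned. Thinned epithelial-like cells gave 2.57% (1.69 to 3.75) and 1.68% (0.996 to 2.64), against 26.6% and 22.5% unthinned. Csf2ra still stood at 9.95 and 7.24 CPM in epithelial-like cells after depletion, so they may not lack it. Median depths were 8770 and 9192 UMIs in alveolar macrophage-like cells.

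Csf2rb, the common beta chain (chromosome 15 from 78325752 to 78353847, plus strand, ENSMUSG00000071713), was highest in mast or basophil-like cells, at 999 CPM (779 to 1262.5) over 14 cells and 803 CPM over 6 cells. Neutrophil-like cells followed at 535 CPM (507 to 565) and 548 CPM (515 to 583). Dendritic cell-like cells had 355 CPM (343 to 367) and 294 CPM (280 to 309), and alveolar macrophage-like cells 309 CPM (301 to 318) and 340 CPM (332 to 347), so the order of these classes differed between the libraries. Lower still were monocyte or macrophage-like cells at 276 and 261 CPM and plasmacytoid dendritic cell-like cells at 277 and 258 CPM. After thinning, Csf2rb was seen in 42.3% (39.9 to 44.7) and 47.2% (45.1 to 49.3) of alveolar macrophage-like cells, against 83.4% and 87.9% unthinned. Thinned epithelial-like cells gave 1.78% (1.06 to 2.80) and 1.96% (1.21 to 2.97), against 14.8% and 14.9% unthinned.

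Csf2rb2 (ENSMUSG00000071714) lies 20030 bases from Csf2rb, on the minus strand of chromosome 15 from 78282507 to 78305721, and the products are near-identical. How the counting divided reads between the genes is not known, so the split is uncertain. Csf2rb2 was highest in plasmacytoid dendritic cell-like cells, at 425 CPM (378 to 475) and 319 CPM (283 to 360), and in mast or basophil-like cells, at 286 CPM (174 to 441) and 338 CPM (146 to 666). In the 4 large myeloid classes it stood between 71.6 and 94.3 CPM. Of the UMIs of both beta chain genes, Csf2rb2 made up 60.6% (56.1 to 64.9) and 55.3% (50.8 to 59.8) in plasmacytoid dendritic cell-like cells. It made up 18.8% (17.8 to 19.8) and 19.5% (18.7 to 20.4) in alveolar macrophage-like cells and 14.5% (12.8 to 16.4) and 14.4% (12.5 to 16.5) in neutrophil-like cells. The intervals of plasmacytoid dendritic cell-like cells thus lay above those of both these classes. They overlapped those of endothelial-like cells, whose share of Csf2rb2 was 44.6% (32.3 to 57.5) with vehicle before depletion and 63.6% (40.7 to 82.8) with tamoxifen after it.

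Csf3r, the G-CSF receptor (chromosome 4 from 126024550 to 126044440, plus strand, ENSMUSG00000028859), was the most class-restricted receptor by its share of UMIs. Neutrophil-like cells held 76.5% (75.4 to 77.6) and 79.1% (77.8 to 80.4) of its UMIs, at 1915 CPM (1861 to 1970) with vehicle and 1645 CPM (1588 to 1704) with tamoxifen. After thinning it was seen in 89.8% (87.1 to 92.1) and 88.8% (85.4 to 91.7) of them, against 93.3% and 90.6% unthinned. Thinned epithelial-like cells gave 0.792% (0.343 to 1.55) and 0.372% (0.102 to 0.951), against 4.09% and 3.68% unthinned. Classical monocyte-like cells had Csf3r at 135 CPM (110 to 164) and 96.1 CPM (74.8 to 122), and non-classical monocyte-like cells 80.8 and 64.4 CPM. Monocyte or macrophage-like cells as a whole had 31.5 and 30.7 CPM, and alveolar macrophage-like cells 9.71 and 9.13 CPM.

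The shares of cells in which receptor genes were seen, alone or together, differed from class to class. After thinning, at least 1 of the 5 receptor genes was seen in 97.8% (96.3 to 98.8) and 96.7% (94.5 to 98.2) of neutrophil-like cells and in 88.004% and 88.2% of monocyte or macrophage-like cells. The shares were 69.2% (66.9 to 71.4) and 74.8% (72.9 to 76.6) in alveolar macrophage-like cells, 76.1% and 70.7% in dendritic cell-like cells, and 6.04% and 5.21% in epithelial-like cells. The pair of Csf1r and Csf2ra was found together in 25.6% (22.9 to 28.4) of monocyte or macrophage-like cells with vehicle and 24.7% (21.4 to 28.1) with tamoxifen. In alveolar macrophage-like cells that pair was seen in 4.97% (3.96 to 6.14) and 6.88% (5.84 to 8.04). Csf2ra with either beta chain, the GM-CSF receptor pair, was seen in 14.3% and 16.3% of alveolar macrophage-like cells, 27.1% and 25.2% of neutrophil-like cells, and 0.0990% and 0.186% of epithelial-like cells. Such joint shares at 2000 UMIs understate how many cells hold both transcripts. They also follow the level of each gene in a class, and pairing beyond those levels was not tested.

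Depletion gave a check on the low receptor signal in epithelial-like cells. Csf3r went from 3.54 to 0.0147 CPM with vehicle and from 2.45 to 0.0224 CPM with tamoxifen, and Csf2rb2 from 1.63 to 0.0147 CPM and from 1.53 CPM to 0 UMIs, which allows up to 0.0224 CPM. Csf1, also low in this class, went from 2.60 to 0.220 CPM and from 2.53 to 0.329 CPM. The other receptor genes kept more of their level. Csf1r went from 5.76 to 2.60 CPM with vehicle and from 5.53 to 2.19 CPM with tamoxifen, and Csf2rb from 10.3 to 2.84 CPM and from 8.95 to 3.11 CPM. Csf2ra changed least of the 5 receptor genes, from 14.5 to 9.95 CPM (log2 -0.50) and from 10.9 to 7.24 CPM (log2 -0.53). Over the same step the summed neutrophil markers in epithelial-like cells went from 211 to 134 CPM with vehicle and from 300.4 to 220 CPM with tamoxifen, with 0 of 7 markers at 0. The alveolar macrophage markers went from 150 to 80.8 CPM and from 225 to 105 CPM, with 3 and 2 of 8 markers at 0 after depletion. Monocyte or macrophage markers went from 230 to 172 CPM and from 189 to 155 CPM, with 2 of 12 at 0 in both. Their part in the receptor counts was not tested. Csf2ra in epithelial-like cells was lower with tamoxifen in both portions, with a log2 ratio of -0.38 (-0.61 to -0.21) before depletion and lower levels in 8 of 9 clusters after it. With equal cluster shares the Csf2ra ratios were -0.56 and -0.66.

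The comparison of treatments asked whether ligand or receptor levels differed within a class once the unequal cell makeup was set aside. The share of alveolar macrophage-like cells among kept cells was 23.3% (22.3 to 24.3) with vehicle and 35.2% (34.0 to 36.4) with tamoxifen. A gene was read where it reached 10 CPM in either library of a class with at least 100 cells in both, and was counted as apart at a difference of at least 2-fold. This is a rule of size and not a test. Over 11 class comparisons 41 readings of a member could be made and 9 were apart.

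In the main receiving classes no member was apart. It was 0 of 4 members in alveolar macrophage-like cells, where 0.444% of all genes were apart, and 0 of 6 in monocyte or macrophage-like cells, where 0.734% were. It was 0 of 4 in dendritic cell-like cells (1.12% of all genes) and 0 of 6 in neutrophil-like cells (4.22%). Epithelial-like cells had 0 of 4 before depletion (1.99%) and 0 of 2 after it (1.71%). The median log2 ratio of the members was 0.17 in alveolar macrophage-like cells against -0.03 over all 8111 genes, and -0.28 in epithelial-like cells before depletion against -0.04 over 9388 genes. In monocyte or macrophage-like cells it was -0.05 against -0.06, and in neutrophil-like cells -0.03 against 0.08.

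Alveolar macrophage-like cells had all 4 receptor genes that were read slightly higher with tamoxifen. Csf3r, under 10 CPM there and not read, had a log2 ratio of -0.08 (-0.40 to 0.22). The log2 ratios of the 4 were 0.31 (0.23 to 0.40) for Csf1r, 0.10 (0.03 to 0.17) for Csf2ra, 0.13 (0.08 to 0.19) for Csf2rb and 0.20 (0.10 to 0.31) for Csf2rb2. Without the cell with most UMIs in each library they were 0.32, 0.11, 0.14 and 0.20. Epithelial markers in these cells summed to 2045 CPM with vehicle and 3260 CPM with tamoxifen, with 0 of 7 markers at 0 in either, and their part was not tested. Whether differences of this size exceed the spread between animals cannot be told from 1 library per group.

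In neutrophil-like cells Csf3r was lower with tamoxifen, with a log2 ratio of -0.22 (-0.29 to -0.15) and a lower value in both clusters. The other 5 members read in that class had log2 ratios from -0.14 to 0.03. Median-of-ratios size factors shifted every neutrophil ratio by -0.13, to -0.35 for Csf3r, and gave Csf2rb and Csf2rb2 the opposite sign (-0.10 and -0.11).

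The 9 readings that were apart lay in lymphocyte and endothelial-like classes. In B cell-like cells 3 of 4 were lower with tamoxifen, where 5.61% of all genes were apart. These were Csf1 (26.0 and 1.72 CPM, log2 -3.31), Csf2rb (27.5 and 12.02 CPM, log2 -1.13) and Csf3r (47.2 and 20.6 CPM, log2 -1.16). Neutrophil markers in these cells summed to 1955 CPM with vehicle and 313 CPM with tamoxifen, with 0 of 7 at 0. The 14 vehicle and 3 tamoxifen cells with at least 10 such marker UMIs held 58 of 66 and 1 of 2 Csf1 UMIs, and 111 of 120 and 21 of 24 Csf3r UMIs. The remaining B cell-like cells had Csf1 at 3.45 and 0.931 CPM and Csf3r at 3.88 and 2.79 CPM. Of the Csf2rb UMIs, 32 of 70 and 3 of 14 lay in those cells, and the remaining cells had 16.4 and 10.2 CPM, a difference under 2-fold. With a marker gate on each cell the Csf3r ratio changed sign, to 0.88.

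NK cell-like cells had 3 of 3 members apart, each with the higher value with tamoxifen, where 10.8% of all genes were apart: Csf2, described above, and Csf1r and Csf2rb on 2 against 6 and 3 against 6 UMIs. Their log2 ratios of 1.76 (-0.39 to 5.43) and 1.31 (-0.72 to 4.13) had intervals that include 0. T cell-like cells had 1 of 2 apart (0.744% of all genes), Csf2, which rested on 1 cell. In endothelial-like cells 1 of 3 was apart before depletion (3.04%), Csf2rb2 at 16.1 and 5.06 CPM. After depletion 1 of 3 was apart (4.97%), Csf2rb at 25.7 and 9.32 CPM. Neither was apart in the other portion, where Csf2rb2 had a log2 ratio of -0.29 and Csf2rb one of 0.06.

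**Figure D5:**
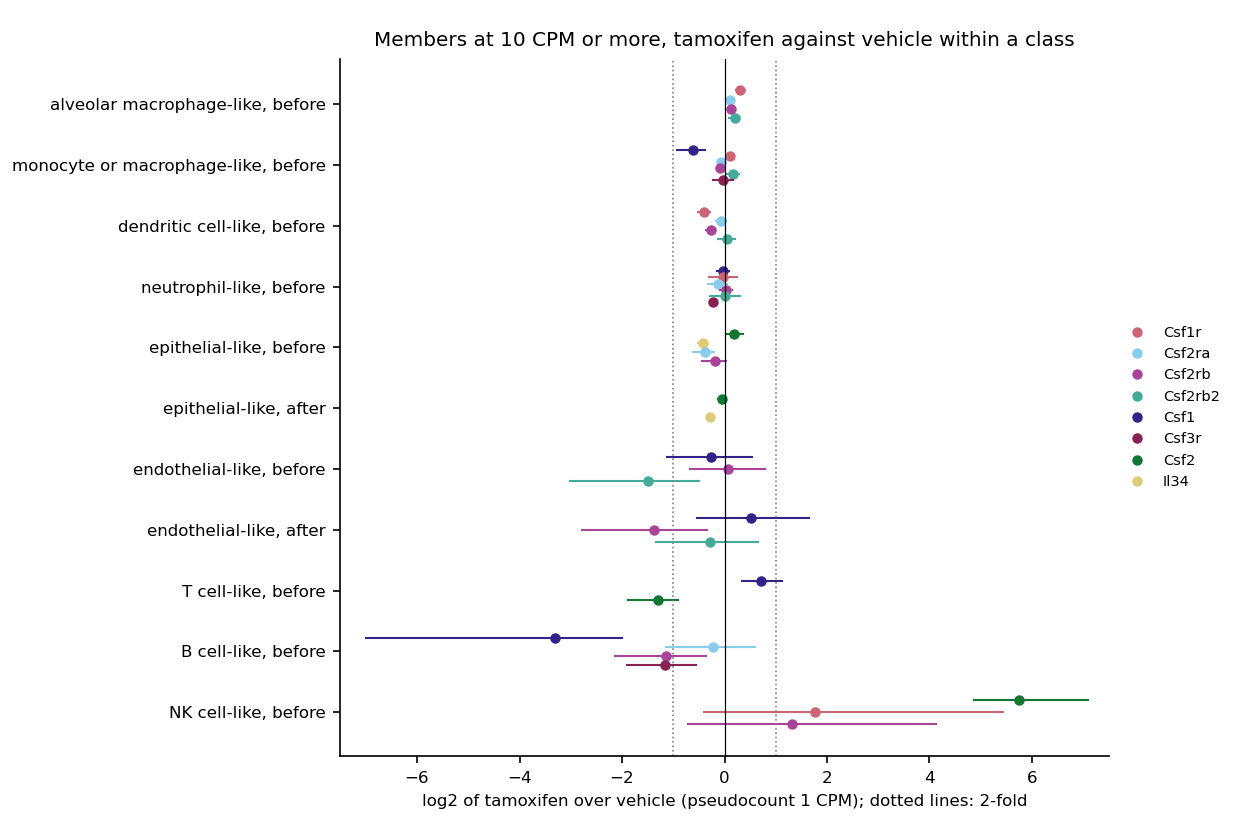
Log2 ratio of tamoxifen over vehicle (horizontal axis, pseudocount 1 CPM) of each member read in each class, with exact conditional binomial 95% intervals of the ratio without pseudocount. Dotted lines mark 2-fold. The 4 large myeloid classes and the epithelial-like class lie inside the lines, and the 9 readings outside them are in B cell-like, NK cell-like, T cell-like and endothelial-like cells.

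Receptor UMIs were divided over the classes differently in the vehicle and tamoxifen libraries. The alveolar macrophage-like share of UMIs was 11.7% (11.2 to 12.2) with vehicle and 25.9% (25.0 to 26.7) with tamoxifen for Csf1r, and 23.3% (22.6 to 24.1) and 42.1% (41.2 to 43.1) for Csf2ra. It was 31.5% (30.8 to 32.3) and 53.5% (52.7 to 54.3) for Csf2rb and 27.7% (26.4 to 29.1) and 46.6% (45.1 to 48.2) for Csf2rb2. Over all kept cells, Csf1r stood at 143 and 122 CPM, a log2 ratio of -0.23 (-0.27 to -0.20). That ratio was -0.16 for Csf2ra, -0.03 for Csf2rb and 0.05 for Csf2rb2. Ratios at equal class shares use UMIs per cell, so they are set beside ratios over all cells in that unit. Csf1r had -0.16 over all cells and 0.05 at equal shares, and Csf2ra -0.086 and -0.02. Csf2rb had 0.036 and -0.0050, and Csf2rb2 0.12 and 0.10.

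For the other genes a difference remained at equal class shares. Over all cells, Csf1 had a log2 ratio of -0.54 (-0.63 to -0.46) in CPM. In UMIs per cell it had -0.47 over all cells and -0.26 at equal shares. In the same order, Csf3r had -0.52 (-0.58 to -0.46), -0.45 and -0.29, and Il34 -0.17 (-0.25 to -0.10), -0.10 and -0.30. Csf2 had 0.50 (0.37 to 0.63), 0.57 and 0.60. Without NK cell-like cells (chosen after seeing the data) Csf2 had -0.000879 over all cells in CPM, and 0.048 at equal shares. The excess of Csf2 over all cells thus rested on the few cells described above. Csf3, on 32 and 19 UMIs, had -0.61 (-1.51 to 0.25), -0.54 and -0.48. Without the top cell of each library Csf3 had 0.35 over all cells in CPM.

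Genes of the surrounding pathway were read from lists of related cytokines and receptors, signalling genes, transcription factors, targets and inducers. Among 23 signalling genes (Janus kinases, STAT proteins, SOCS inhibitors and adaptors), 22 or 23 were read in each large leukocyte class and 17 in epithelial-like cells. Of these 1 was apart, Dok2, an adaptor that restrains myeloid signalling, at 9.67 and 24.9 CPM in neutrophil-like cells (log2 1.28), where 4.22% of all genes were apart. The median log2 ratio of the signalling list was 0.04 in alveolar macrophage-like cells against -0.03 over all genes, and -0.00049 in neutrophil-like cells against 0.08. The 10 related cytokine and receptor genes gave 1 to 4 readings per class and none apart.

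Of 10 genes linked to GM-CSF in alveolar macrophages, 9 were read in alveolar macrophage-like cells and 1 was apart, beside 0.444% of all genes. It was Ccl17, a chemokine, at 28.9 and 59.0 CPM (log2 1.01), and 0.55 without the 10 cells with most UMIs in each library. The list's median there was -0.17, against -0.03 over all genes. Car4, a carbonic anhydrase of the same list, was higher with tamoxifen in neutrophil-like cells, at 159 and 451 CPM (log2 1.497, and 1.82 without the top 10 cells), where it was the 1 apart of 7 read, beside 4.22% of all genes. In monocyte or macrophage-like cells it was the 1 apart of 10 read, at 5.00 and 12.5 CPM (log2 1.17), beside 0.734% of all genes. Of the list none was apart in T cell-like, dendritic cell-like or epithelial-like cells, where 4, 8 and 6 were read.

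The G-CSF-linked list, made of neutrophil granule and maturation genes, had 4 of 10 apart in neutrophil-like cells, each lower with tamoxifen, where 4.22% of all genes were apart in either direction. The median log2 ratio of the list was -0.39, against 0.08 over all genes. Camp, encoding cathelicidin, stood at 1662 and 28.6 CPM (log2 -5.81), with 99.8% of vehicle UMIs in 10 cells. Ngp stood at 1444 and 87.9 CPM (log2 -4.02), Ltf, encoding lactoferrin, at 490 and 136 CPM (-1.84), and Lcn2 at 1050.5 and 427 CPM (-1.30). Without the 10 cells with most UMIs in each library, Camp had a log2 ratio of -1.98 (2.95 CPM and 0 UMIs) and Ngp one of -1.44 (16.4 and 5.43 CPM). Lcn2 then had -0.02 and Ltf -0.24, so the differences of all 4 rested largely on few cells. Mmp9, of the same list, was the 1 apart of 2 read in dendritic cell-like cells (log2 4.48) and of 3 read in monocyte or macrophage-like cells (log2 3.12), where 1.12% and 0.734% of all genes were apart. There 314 of 364 and 209 of 254 tamoxifen UMIs came from 1 cell each, and the Mmp9 ratios were -0.17 and 0.56 without the 10 cells with most. Alveolar macrophage-like, T cell-like and epithelial-like cells gave 2, 1 and 1 readings of the list and none apart. Of 12 transcription factors of receptor-bearing cells, 7 to 11 were read per class and 1 was apart in neutrophil-like cells. It was Irf8, which acts in the monocyte and dendritic lineages, at 6.85 and 20.1 CPM (log2 1.43, and 0.51 without the top 10 cells).

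Among 10 inducers of colony-stimulating factors, 4 to 6 were read per class and Il17a in T cell-like cells was the 1 apart, beside 0.744% of all genes there. T cell-like cells had it at 55.7 CPM with vehicle and 207 CPM with tamoxifen (log2 1.88, 1.72 to 2.07). The UMIs lay in 37 of 1066 and 34 of 661 cells, and the ratio was 1.47 without the 10 cells with most. Csf3, a textbook target of interleukin 17 in epithelium, stood at 0.2503 and 0.432 CPM in epithelial-like cells before depletion, on 8 and 15 UMIs. These Csf3 levels are too low for a ratio, and a link to Il17a was not tested.

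Finally, genes with the pattern most like each member were sought over 27 sums of a class in a library before depletion, covering 14 classes and 13827 genes. These sums share libraries and cell makeup, so the correlations describe this map only. Csf1r was nearest to Clec4n (Pearson r 0.94), Tbxas1 and Clec4a3, and Csf2ra to Cd300c2 (0.96), Clec4n and Pira2. Csf2rb was nearest to Alox5ap (0.96), Pirb and Gpr35, Csf2rb2 to Csf2rb itself (0.94), Gpr35 and I830077J02Rik, and Csf3r to Gm2511 (0.92), S100a8 and Cxcr2. Among ligands Csf1 was nearest to Pgghg (0.87), 4833427F10Rik and Egln3, Il34 to Dync2li1 (0.95), Alkal1 and Cd59a, and Csf2 to Idi2 (0.84), Sytl2 and Il12rb1. Csf1 and Csf3r had r of 0.62 with each other, whereas Csf1 had 0.16 with Csf1r, and Csf2 had -0.49 with Csf2ra.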

How the data were processed

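Single-cell RNA was measured with the 3′ version 3 chemistry of 10x Genomics in 4 libraries, 1 per group. Part of the genotype that all groups share is not reported here. The values are UMI counts per gene and barcode, deposited by the authors without normalization. Per the file headers the matrices were written by Cell Ranger 7.0.1, whereas the submitters' processing notes name Cell Ranger 7.2.0 with mm10. Which annotation was used, and whether intronic or antisense reads were counted, were not given in the sources used here. Gene coordinates are those of GENCODE M21 (GRCm38).

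Barcodes with fewer than 200 genes or more than 20% mitochondrial UMIs were dropped. Doublets were scored with Scrublet in scanpy 1.11.5 (expected rate 0.06). Its automatic threshold called 188, 1, 1 and 0 cells, so a fixed score of 0.25 was used, which removed 225, 120, 116 and 153. All kept cells were clustered together (2000 variable genes, 40 components, 15 neighbours, Leiden resolution 1, igraph 0.11.9), without batch correction. Clusters were named from marker lists that contain no member, with at least 3 markers each seen in 10% of cells. Epithelial-like cells were not divided into tumour and normal cells, and 118 and 83 cells before depletion stayed unnamed.

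UMIs were summed per class and library and given as CPM with exact Poisson 95% intervals. Shares carry Clopper-Pearson 95% intervals and ratios exact conditional binomial 95% intervals, and upper limits for a count of 0 correspond to 3 counts. Log2 ratios use a pseudocount of 1 CPM. The size rule was tested on simulated data, in which counting noise put some unchanged neutrophil-like genes past it. Equal class shares means UMIs per cell of each class, weighted by the mean of both libraries' class shares. Named pathway genes are those at 10 CPM or more and at least 2-fold apart, at most 4 per class and list, and the 3 genes with the highest correlation are named for each member that reached 10 CPM. Csf3 did not do so in a class of at least 20 cells in both libraries and got none. The members, markers and lists were chosen with earlier results of these data known. The alternatives tried are scaling by TMM (edgeR 4.0.16 in R 4.3.3) or median-of-ratios size factors, other filters, clustering, gates and thinning, and those added after seeing the data.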

Additional observations from a re-analysis of the deposited data

Results flagged for a closer look

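Some genes differed in opposite directions between classes before depletion, with intervals of counting error that exclude 0 on each side. The log2 ratios of tamoxifen over vehicle were as follows. Csf1 had 0.70 in T cell-like and -3.31 in B cell-like cells. Csf2 had 5.74 in NK cell-like and -1.30 in T cell-like cells. Csf1r had 0.31 in alveolar macrophage-like and -0.39 in dendritic cell-like cells. Csf2ra had 0.10 in alveolar macrophage-like and -0.38 in epithelial-like cells. Csf2rb had 0.13 in alveolar macrophage-like and -1.13 in B cell-like cells. Csf2rb2 had 0.20 in alveolar macrophage-like and -1.50 in endothelial-like cells. Some of these rest on few cells. In vehicle B cell-like cells 58 of 66 Csf1 and 32 of 70 Csf2rb UMIs lay in 14 cells with at least 10 neutrophil marker UMIs. In NK cell-like tamoxifen cells 177 and 105 of 329 Csf2 UMIs came from 1 cell each. In T cell-like vehicle cells 121 of 195 came from 1 cell, and the Csf2 ratio there was 0.021 at Leiden resolution 2. With 1 library per group the differences between classes were not tested.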

How the results depend on the processing

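Of 451 recomputed ratios within a class (41 ratios), 417 stayed within the counting interval of the reported value. In 28 the sign was not kept, 2 of them readings that were at least 2-fold apart: the Csf3r ratio in B cell-like cells under the per-cell marker gate (0.88) and the Csf2 ratio in T cell-like cells at Leiden resolution 2 (0.021). Counted as UMIs per cell, the log2 ratios over all cells were 0.036 for Csf2rb, the opposite sign, and -0.16 for Csf1r, -0.086 for Csf2ra, 0.12 for Csf2rb2 and -0.45 for Csf3r. With CPM of each class in place of UMIs per cell, the ratios at equal class shares were -0.14 for Csf1, 1.33 for Csf2 and 0.10 for Csf1r, and with at least 1000 genes per cell that of Csf3r was -0.22. Other alternatives were chosen after seeing the data. Leaving out NK cell-like cells gave Csf2 -0.000879 over all cells in CPM, and 0.048 at equal shares in UMIs per cell. Leaving out the top cell gave 0.35 for Csf3 over all cells in CPM. With no minimum CPM, 15 readings of a member rather than 9 were apart, and 11 were at 1.5-fold. The count of all genes apart at 2-fold, with no minimum CPM and at 1.5-fold was 36, 103 and 158 in alveolar macrophage-like cells, 60, 151 and 197 in monocyte or macrophage-like, 92, 323 and 389 in dendritic cell-like, 314, 1805 and 1118 in neutrophil-like, 487, 2189 and 1572 in B cell-like, 63, 336 and 486 in T cell-like and 923, 4494 and 2494 in NK cell-like cells. It was 187, 399 and 514 in epithelial-like cells before and 157, 304 and 487 after depletion, and 276, 1808 and 1234 before and 446, 2690 and 1454 after depletion in endothelial-like cells. The causes of the other changes were not tested. Of 54 recomputed shares of UMIs 17 moved, by at most 1.15-fold. Csf1, Il34, Csf1r, Csf2rb and Csf3r kept the same highest class among classes with at least 100 cells under all 9 settings tried. Csf2, Csf2ra and Csf2rb2 did not. The main limit is 1 library per group, and the readings of Csf1r and Csf2rb in NK cell-like cells rest on under 10 UMIs in each library. No paired analysis of vehicle against tamoxifen was possible because each group holds 1 library and the labels carry no replicate numbers. The portions before and after depletion share suspensions and were set side by side within each treatment.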
